A study of Mus musculus with 17 samples.

Results

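The sarcomere is the contractile unit of striated muscle, and the data described here are the expression values of 41 genes that encode its proteins in fast and slow muscle fibres. The genes were chosen by name from their known roles: 6 myosin heavy chains, 5 genes of myosin light chains and their kinase, 6 troponins, 3 tropomyosins, 5 genes of actins, thin filament caps and nebulin, 3 myosin-binding proteins, 4 genes of titin and the M-band, 7 Z-disc genes, and desmin with myoglobin. All 41 were measured among the 19938 genes of the table, each by the probe set with the highest mean over the arrays. Skeletal muscle of 17 male wildtype C57BL/6N mice, aged 5 to 6 months, was studied with 1 array per mouse. STZ,BEZ mice (n = 5) were injected with streptozotocin, which destroys the beta cells that make insulin, and then fed chow with bezafibrate, an activator of the peroxisome proliferator-activated receptors. STZ,SD mice (n = 5) were injected likewise and ate a standard diet. Con,SD mice (n = 7) ate the standard diet without streptozotocin. Per the labels, 65 mg/kg streptozotocin was given on 5 days at 10 to 16 weeks of age, controls got citrate buffer, and chow with 0.25% or 0.5% bezafibrate was fed for 8 weeks from 2 weeks after the injections. The labels do not say which mouse ate which strength, and the methods give another, lower streptozotocin dose, the higher strength alone and uninjected controls. No source used here names the muscle.

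In a sarcomere, thick filaments of myosin pull on thin filaments of actin, and the thin filaments are anchored in the Z-disc while the thick ones are held together at the M-band. Calcium bound by troponin moves tropomyosin off the actin sites and lets myosin heads attach. Fast and slow fibres build the same structure from different paralogues of most of these proteins, so that the paralogues serve as marks of fibre type, and slow fibres are rich in mitochondria and myoglobin. In mice most limb muscles are made up mainly of fast fibres, with slow fibres gathered in few muscles or in their deep parts.

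Many of these genes lay near the top of what the arrays measured. Values are log2 expression values, and the highest value on an array was 14.47 to 14.61. A mean over 17 arrays above 13 was reached by 15 of the 41 genes, against 49 of all 19938 genes (0.246%), and 20 of the 41 were in the highest 1% of probe sets. Acta1, the skeletal alpha-actin of the thin filament, averaged 14.01 ± 0.032 in STZ,BEZ, 14.04 ± 0.023 in STZ,SD and 14.05 ± 0.036 in Con,SD (mean ± SD here and below). Neb, the ruler protein along the thin filament, averaged 13.58 ± 0.026 in STZ,BEZ, 13.60 ± 0.019 in STZ,SD and 13.58 ± 0.044 in Con,SD. At such levels a probe may be close to its brightest signal, and how far that narrows differences was not tested. Levels of different genes come from different probes and were not ranked against each other.

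**Figure D1:**
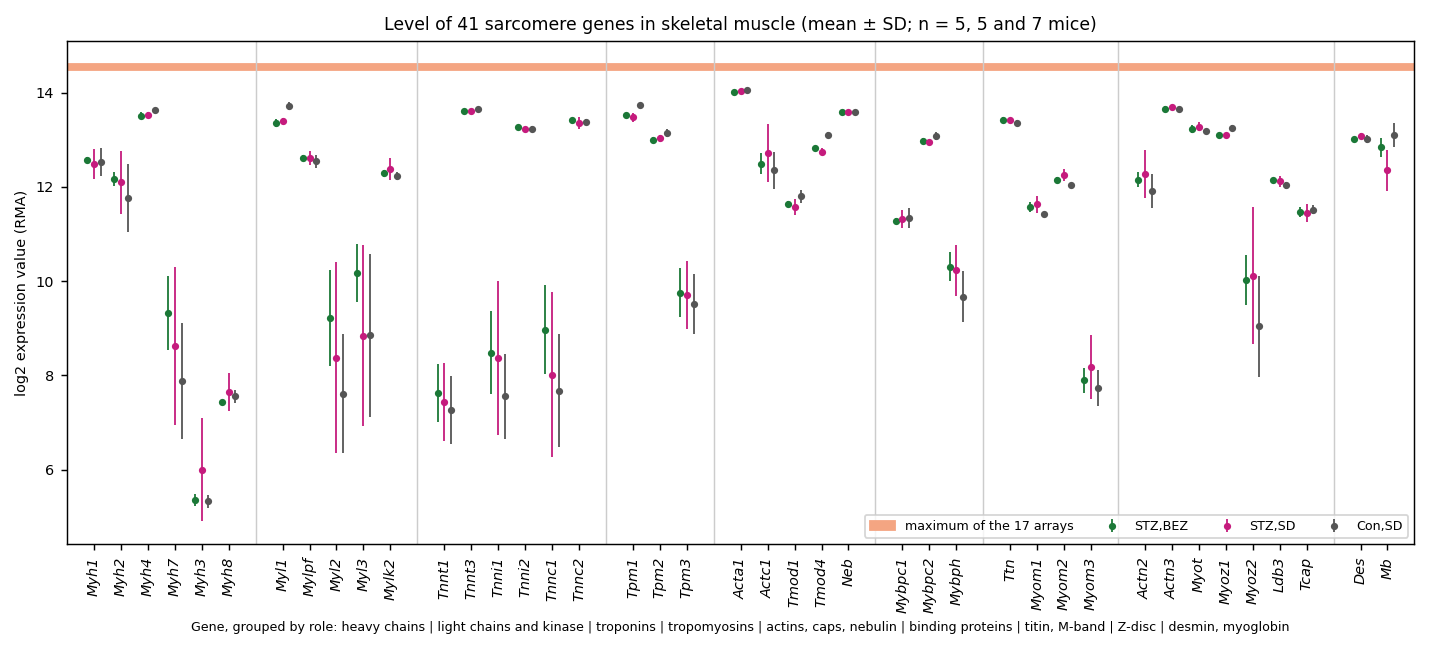
Levels of the 41 genes, grouped by the role of the protein. The y axis gives the log2 expression value, points and bars are the mean and SD of STZ,BEZ (n = 5), STZ,SD (n = 5) and Con,SD (n = 7), and the shaded band spans the highest values of the 17 arrays, 14.47 to 14.61. The slow-fibre genes Myh7, Myl2, Myl3, Tnnt1, Tnni1, Tnnc1, Tpm3 and Myoz2 have long bars in each group, and most fast-fibre genes have bars hardly longer than the symbols. Long bars are also seen for Myh3, Myom3 and Actc1 in STZ,SD (SDs of 0.62 to 1.10). Myh2 (SDs of 0.66 in STZ,SD and 0.71 in Con,SD) and Mybph (0.54 and 0.55) have them in both groups.

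By the known fibre type of their proteins, 13 of the genes were classed as fast and 8 as slow. Another 2 belong to developing or regenerating fibres, and 18 were classed as shared, for both or no single type. Mybpc1, a slow-type protein, and Myom2, found in fast fibres, were kept among the shared genes. Their SDs between mice of a group were 0.175 and 0.0833. The slow-fibre genes differed widely between mice of the same group, while most fast-fibre genes hardly did. The SD between mice of a group, pooled over the 3 groups, had a median of 1.21 log2 units over the 8 slow-fibre genes (range 0.634 to 1.56) and of 0.0666 over the 13 fast-fibre genes (range 0.0294 to 0.592). The median over the 18 shared genes was 0.102, and over all 19938 genes it was 0.139. Levels differed as well: means over 17 arrays were 7.42 (Tnnt1) to 9.65 (Myoz2) in the 8 slow-fibre genes. In the 13 fast-fibre genes they were 11.98 (Myh2) to 13.67 (Actn3), nearer the top of the arrays. The part of level in this contrast of spread was not tested. Myl3, the essential myosin light chain of slow fibres and of the heart ventricle, had the largest SD of all genes of the table, 1.56. Tnnt3, the fast-fibre troponin T, had one of 0.0294. Among the fast-fibre genes Myh2 and Myh1 stood out, with SDs of 0.592 and 0.258 at percentiles 98.6 and 91.5 of all genes.

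**Figure D2:**
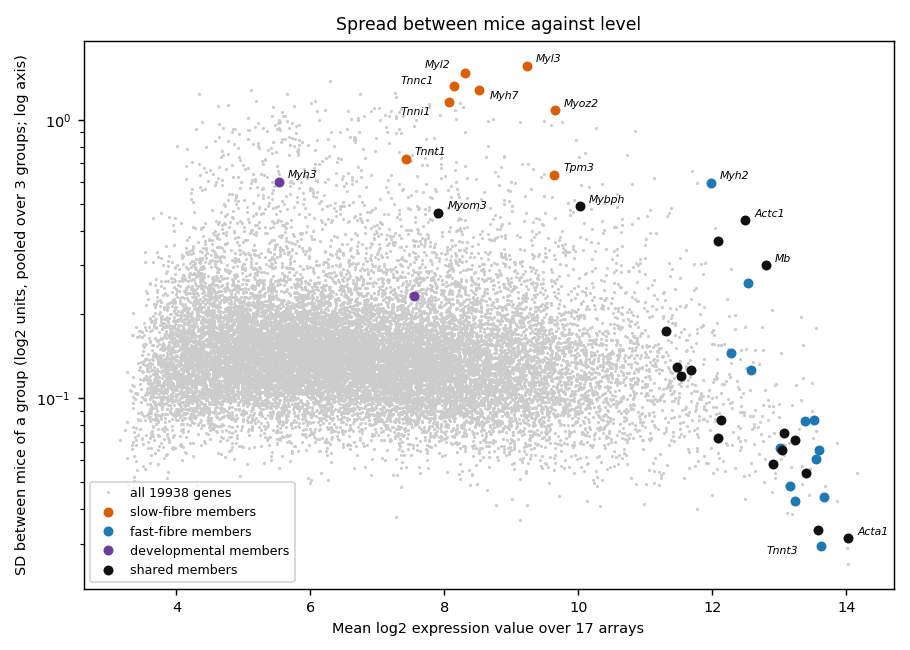
Spread between mice of a group against level. Each grey point is 1 of the 19938 genes and each coloured point 1 of the 41 sarcomere genes, by fibre class, with the mean over 17 arrays on the x axis (log2 units) and the SD within groups, pooled over 3 groups, on a log y axis (log2 units). The 8 slow-fibre genes, with SDs of 0.634 to 1.56, lie along the upper edge of the cloud, and most fast-fibre genes, Tnnt3 among them, lie at its lower right.

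The slow-fibre thick filament genes showed how large this spread was. Myh7, the slow myosin heavy chain, had values of 8.71, 10.55, 8.95, 8.75 and 9.63 in STZ,BEZ replicates 1 to 5 and 10.01, 9.70, 9.78, 6.93 and 6.65 in STZ,SD replicates 1 to 5, and the lowest, median and highest Con,SD mice were at 6.50, 7.40 and 9.46. Myl2, the regulatory light chain of slow fibres, had 8.20, 10.67, 8.58, 8.78 and 9.82 in STZ,BEZ and 10.30, 9.51, 9.65, 6.51 and 5.86 in STZ,SD, with 6.17, 7.13 and 9.19 as lowest, median and highest of Con,SD. The highest and lowest STZ,SD mice thus stood 4.44 log2 units apart in Myl2, a 21.7-fold range, against 2.47 units in STZ,BEZ and 3.02 in Con,SD. Myl3 had 9.55, 11.11, 10.07, 9.70 and 10.42 in STZ,BEZ and 10.67, 10.13, 9.86, 7.10 and 6.44 in STZ,SD, with 6.58, 8.70 and 10.81 in Con,SD. In all these genes STZ,SD replicates 1 to 3 were high and replicates 4 and 5 low, and the groups overlapped.

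The slow-fibre troponins, which form the calcium switch on the thin filament, varied on the same arrays. Tnnt1, the subunit that binds tropomyosin, had 7.07, 8.65, 7.31, 7.40 and 7.69 in STZ,BEZ and 8.44, 7.69, 7.87, 6.72 and 6.46 in STZ,SD, with 6.37, 6.97 and 8.21 as lowest, median and highest of Con,SD. Tnni1, the inhibitory subunit, had 7.85, 9.96, 8.07, 7.93 and 8.59 in STZ,BEZ and 10.16, 9.23, 9.15, 6.36 and 6.93 in STZ,SD, with 6.56, 7.19 and 8.65 in Con,SD. Tnnc1, the calcium-binding subunit of slow fibres and heart, had 8.36, 10.51, 8.67, 8.12 and 9.16 in STZ,BEZ and 9.45, 9.21, 9.18, 6.33 and 5.88 in STZ,SD, with 6.25, 7.12 and 9.26 in Con,SD. Again STZ,BEZ replicate 2 was the highest of its group and STZ,SD replicates 4 and 5 were the lowest of theirs.

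Tpm3, the slow-fibre tropomyosin that covers the myosin sites of actin, had 9.41, 10.65, 9.60, 9.38 and 9.74 in STZ,BEZ and 10.45, 10.12, 10.09, 8.97 and 8.88 in STZ,SD, with 8.49, 9.37 and 10.37 in Con,SD. Myoz2, the calsarcin of slow fibres and heart that binds alpha-actinin and calcineurin at the Z-disc, had 9.34, 10.77, 9.89, 9.91 and 10.22 in STZ,BEZ and 11.10, 11.21, 11.17, 8.90 and 8.19 in STZ,SD, with 7.17, 9.22 and 10.11 in Con,SD. All 8 genes put the mice in nearly one order. STZ,BEZ replicate 2 was the highest of its group in 8 of 8 genes and replicate 1 the lowest in 6. STZ,SD replicate 1 was the highest in 7 and replicate 5 the lowest in 7, and Con,SD replicate 7 was the highest in 7 and replicate 6 the lowest in 8. The mean of the 8 genes lay at 8.56 to 10.36 on STZ,BEZ arrays, 6.91 to 10.07 on STZ,SD arrays and 6.76 to 9.49 on Con,SD arrays. Fewer slow fibres in a piece of muscle and less slow-fibre RNA per fibre cannot be told apart in such bulk samples, and neither can the region of muscle taken.

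**Figure D3:**
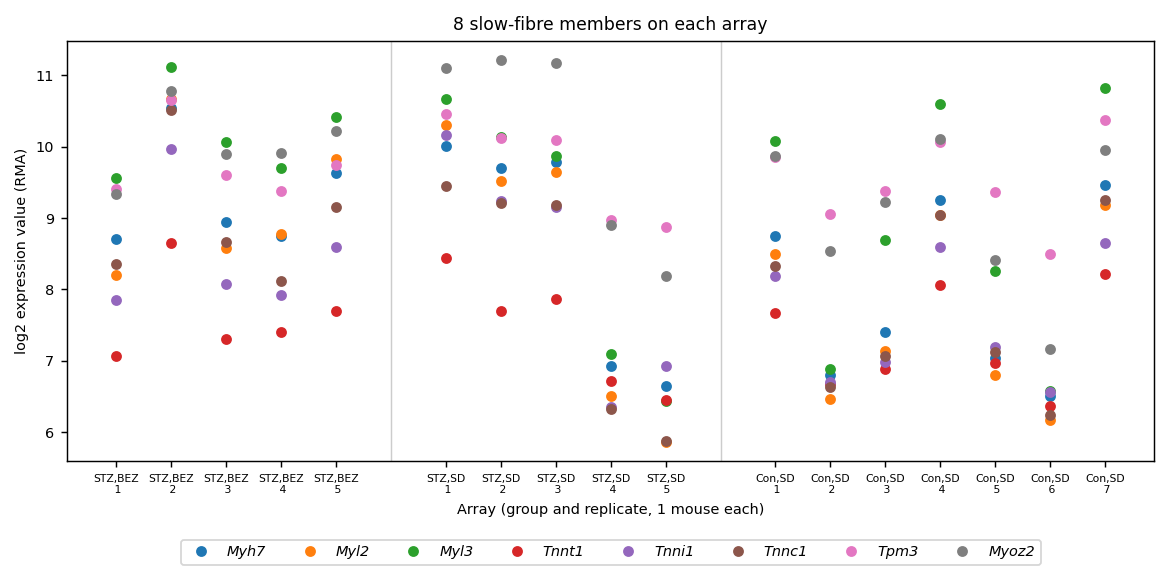
Values of the 8 slow-fibre genes on each of the 17 arrays. The x axis gives the group and replicate, the y axis the log2 expression value, and each colour is 1 gene. The genes are high or low on the same arrays within each group, with STZ,BEZ replicate 2 at the top of its group and STZ,SD replicates 4 and 5 and Con,SD replicate 6 at the bottom of theirs.

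Some genes outside the slow class followed the same mice, a pattern read from the slow-fibre values themselves. All 8 slow-fibre genes met it for that reason and are left out of the counts by class. STZ,SD replicates 1 to 3 lay above 4 and 5 in 3 of the 13 fast-fibre, 8 of the 18 shared and 2 of the 2 developmental genes. That was so in 2670 of all 19938 genes. Con,SD replicates 1, 4 and 7 lay above the other Con,SD mice as well in 2 fast-fibre genes (Myh1 and Myh2) and 3 shared genes (Mybpc1, Myom3 and Actn2). Of all genes 94 (0.471%) had both orders. Myh2, the heavy chain of fast oxidative (type IIa) fibres, had 12.02, 12.38, 12.20, 12.00 and 12.20 in STZ,BEZ and 12.66, 12.51, 12.45, 11.78 and 11.07 in STZ,SD, with 10.42, 11.82 and 12.50 as lowest, median and highest of Con,SD. Actn2, the alpha-actinin found in the Z-discs of all fibres, had 11.90, 12.31, 12.24, 12.11 and 12.20 in STZ,BEZ and 12.54, 12.66, 12.66, 11.95 and 11.54 in STZ,SD, with 11.24, 11.92 and 12.25 in Con,SD. In both, STZ,SD replicates 4 and 5 were the lowest of their group, as the pattern requires. Con,SD replicate 6 was the lowest of its own group in both. Myom3, a myomesin of the M-band, Myh1, the heavy chain of type IIx fibres, and Mybpc1, the slow-type myosin-binding protein C, also had STZ,SD replicates 4 and 5 and Con,SD replicate 6 as the lowest mice of their groups. Myh4, the heavy chain of type IIb fibres, the fastest type, lay at 13.42 to 13.59 on STZ,BEZ arrays, 13.41 to 13.59 on STZ,SD arrays and 13.55 to 13.70 on Con,SD arrays, a narrow range in each group.

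Skeletal muscle markers were high on all arrays, which does not exclude other tissue. The mean of 6 of them (Ckm, Ryr1, Cacna1s, Atp2a1, Casq1 and Pygm) was 13.35 to 13.42 in STZ,BEZ, 13.26 to 13.39 in STZ,SD and 13.33 to 13.42 in Con,SD. Of 7 heart muscle genes, Nppa, Myl7, Tnni3 and Ryr2 lay between 5.43 and 6.33 on all arrays and Myh6 between 5.91 and 6.95, while Tnnt2 lay at 7.35 to 8.34 and Myl4 at 9.44 to 11.27, beside array medians of 6.22 to 6.32. The mean of 14 hepatocyte genes, led by Alb, was 7.17 to 7.90 in STZ,BEZ, 7.69 to 8.74 in STZ,SD and 7.20 to 11.61 in Con,SD. Con,SD replicate 1 was the highest, at 11.61, and replicate 2 followed at 9.53. The highest values over the 17 arrays were 13.79 for Alb and 12.92 for Apoa1. Liver genes were thus strongly read on Con,SD replicate 1, and the source of that signal was not tested. Mean levels of 6 endothelial markers were 9.13 to 9.40 in STZ,SD, against 8.90 to 9.14 in Con,SD, and of 5 satellite cell markers 7.41 to 7.57, against 7.21 to 7.44, and their part in the differences given here was not tested. Arrays of a group correlated at 0.987 to 0.993 in STZ,BEZ, 0.988 to 0.994 in STZ,SD and 0.952 to 0.991 in Con,SD.

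STZ,SD was set against Con,SD to ask what diabetes from loss of insulin altered in muscle. Of the 41 sarcomere genes, 7 were lower and 2 higher in STZ,SD, and the changes were small. Myoglobin (Mb), the oxygen store of oxidative fibres, fell the most, with a log2 difference of -0.75 ± 0.16 (SE), which is 1.68-fold lower. The thin filament cap Tmod4, the fast essential light chain Myl1 and the fast-fibre tropomyosin Tpm1 fell by 0.35, 0.32 and 0.27 log2 units. The M-band genes Myom2 and Myom1 rose by 0.21 and 0.20. None of the 8 slow-fibre genes and neither developmental gene passed in limma.

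Tests were made with limma across all 19938 genes, and a gene was called at a Benjamini-Hochberg adjusted p under 0.1. The 9 called genes were 22% of the 41, against 25.8% of all genes tested (13.9% higher and 11.9% lower). The share of sarcomere genes called was therefore no larger than that of all genes. Of the fast-fibre genes 0 rose and 4 fell of 13, and of the shared genes, which include Myom2, 2 rose and 3 fell of 18. The median log2 difference of the 41 genes was 0.064, beside -0.0095 for all genes. After a second quantile normalization over the named genes 12 members were called, 7 higher and 5 lower, of which 7 were among the 9. Adding the hepatocyte level of each array to the model left 9 called, 8 of them the same. With the mean level of the slow-fibre genes in the model, an alternative chosen after seeing the data, 8 of the 33 other genes were called and all 8 were among the 9. SAM, the method of the study, called 14 (8 higher and 6 lower), 8 of them among the 9. The 6 others, all higher, were the slow-fibre genes Tnni1 and Myoz2, the developmental gene Myh3, and Mybph, Myom3 and Actn2.

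The falls of Mb and Tmod4 were the largest. Mb values were 12.94, 12.21, 12.14, 12.60 and 11.84 in STZ,SD, against a lowest, median and highest of 12.66, 13.12 and 13.38 in Con,SD, with an adjusted p of 0.00315. STZ,SD replicate 1 and Con,SD replicate 6 made the 2 groups overlap. Among the Con,SD mice Mb followed the order of the slow-fibre genes. Replicates 1, 4 and 7 were the highest, at 13.25, 13.38 and 13.30, and replicate 6 was the lowest. The STZ,SD mice did not keep that order, with replicate 4 at 12.60 above replicates 2 and 3. Mb was also called with the mean of the slow-fibre genes in the model. Tmod4, one of the tropomodulins that cap the pointed ends of thin filaments, had 12.73, 12.68, 12.68, 12.83 and 12.83 in STZ,SD, against 12.98, 13.09 and 13.17 in Con,SD, a difference of -0.35 ± 0.048 (adjusted p = 0.000101). All 5 STZ,SD mice were below all 7 Con,SD mice.

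Myl1, which encodes the essential light chains of fast fibres, had 13.40, 13.32, 13.35, 13.40 and 13.48 in STZ,SD, against 13.58, 13.69 and 13.85 in Con,SD, a difference of -0.32 ± 0.057 (adjusted p = 0.000768). Tpm1, the alpha-tropomyosin that fast fibres use, had 13.55, 13.33, 13.42, 13.53 and 13.54 in STZ,SD, against 13.65, 13.76 and 13.78 in Con,SD, a difference of -0.27 ± 0.050 (adjusted p = 0.00131). Myoz1, the calsarcin of fast fibres, had 13.02, 13.09, 13.13, 13.12 and 13.13 in STZ,SD, against 13.16, 13.25 and 13.33 in Con,SD, a difference of -0.15 ± 0.045 (adjusted p = 0.0256). In these 3 genes and Tmod4 the groups did not overlap. These were 4 of 41 genes, all lower, where 8.3% of all genes did not overlap, 3.43% with STZ,SD lower and 4.87% with STZ,SD higher.

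The calls of Tmod1 and Mybpc2 were lost when single mice were left out. Tmod1, the other tropomodulin, had 11.65, 11.33, 11.47, 11.74 and 11.66 in STZ,SD, against 11.63, 11.80 and 11.94 in Con,SD, a difference of -0.22 ± 0.075 (adjusted p = 0.0451), with overlapping groups. Its adjusted p was 0.14 without STZ,SD replicate 2 and 0.117 without replicate 3, the 2 lowest mice, and 0.498 for the mean of its 2 probe sets. Mybpc2, the fast-type myosin-binding protein C of the thick filament, had 12.95, 12.92, 13.02, 12.93 and 12.90 in STZ,SD, against 12.93, 13.10 and 13.18 in Con,SD, a difference of -0.13 ± 0.051 (adjusted p = 0.088). Leaving out any 1 of 9 of the 12 mice ended this call, with adjusted p between 0.116 and 0.168: all but Con,SD replicates 1 and 4 and STZ,SD replicate 3.

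The M-band crosslinks neighbouring thick filaments through myomesins. Myom2, also called M-protein and found in fast fibres, had 12.29, 12.25, 12.43, 12.09 and 12.17 in STZ,SD, against 11.94, 12.06 and 12.09 in Con,SD, a difference of 0.21 ± 0.057 (adjusted p = 0.0158). Only STZ,SD replicate 4 lay within the range of Con,SD. Myom1, the myomesin of all fibres, had 11.64, 11.77, 11.84, 11.45 and 11.42 in STZ,SD, against 11.34, 11.44 and 11.49 in Con,SD, a difference of 0.20 ± 0.072 (adjusted p = 0.063). Here STZ,SD replicates 1 to 3 were above Con,SD and replicates 4 and 5 within it. Replicates 1 to 3 lay above 4 and 5 in the slow-fibre genes too, but also in 2670 of all 19938 genes. Among the Con,SD mice Myom1 did not follow the order of the slow-fibre genes, with replicate 7 at 11.42 and replicate 3 highest at 11.49. The adjusted p of Myom1 was 0.106 without STZ,SD replicate 1, 0.165 without replicate 2 and 0.194 without replicate 3. Myom3 had 9.06, 8.35, 8.39, 7.83 and 7.24 in STZ,SD, against 7.23, 7.57 and 8.27 in Con,SD, with a difference of 0.44 ± 0.24 that did not pass (adjusted p = 0.215) but reached 0.038 without STZ,SD replicate 5. For Ttn, the giant spring that spans from Z-disc to M-band, the difference was 0.047 ± 0.047 (adjusted p = 0.513).

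**Figure D4:**
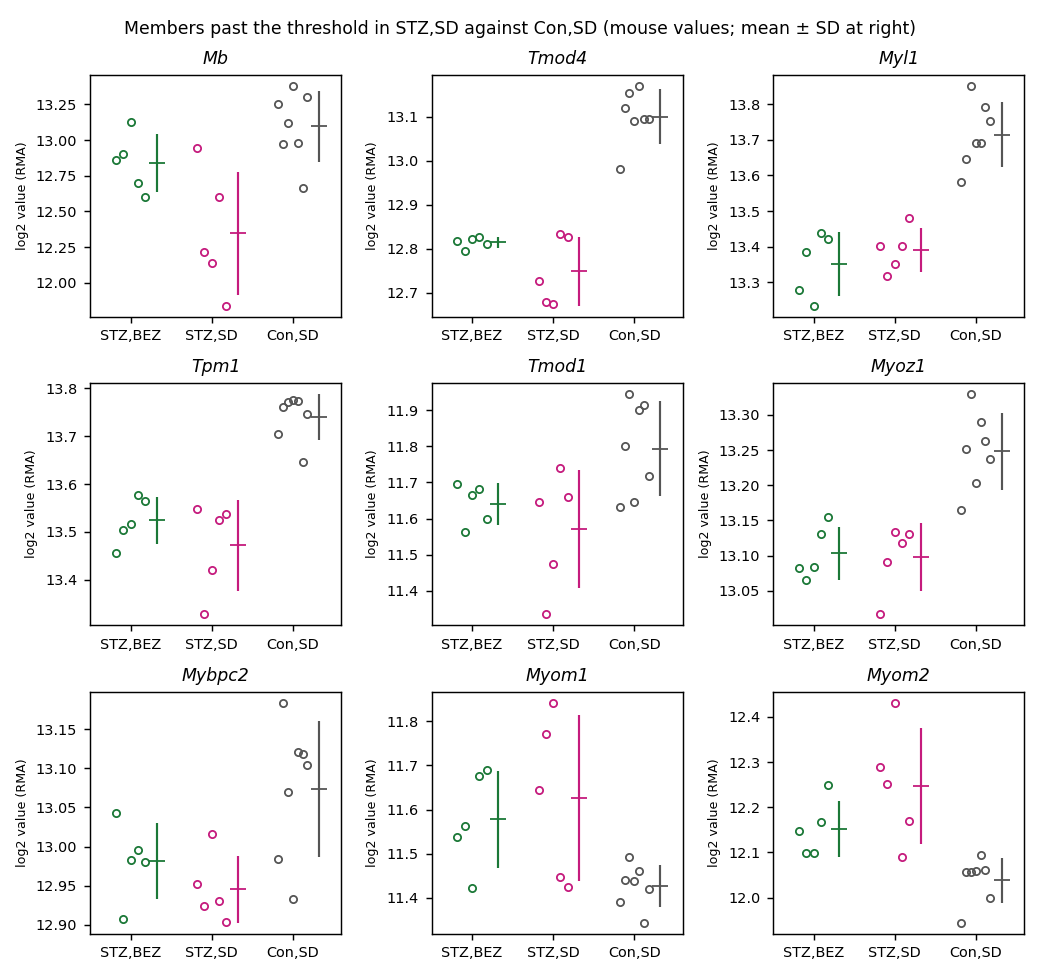
Values of the 9 sarcomere genes called in STZ,SD against Con,SD, ordered from the largest fall to the largest rise. Each panel gives 1 gene, with the log2 expression value on a y axis of its own, open circles for mice of STZ,BEZ (n = 5), STZ,SD (n = 5) and Con,SD (n = 7), and the mean ± SD beside them. In Tmod4, Myl1, Tpm1 and Myoz1 all STZ,SD mice lie below all Con,SD mice, and in the other 5 genes the groups overlap.

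For the slow-fibre genes the spread between mice set wide intervals on the difference of STZ,SD from Con,SD. The distance from the estimate to an end of its 95% interval had a median of 1.31 log2 units over the 8 genes, against 0.107 over the 13 fast-fibre genes. Differences were 0.73 ± 0.66 for Myh7, 0.76 ± 0.75 for Myl2, -0.0044 ± 0.80 for Myl3, 0.17 ± 0.37 for Tnnt1, 0.81 ± 0.59 for Tnni1, 0.34 ± 0.68 for Tnnc1, 0.19 ± 0.33 for Tpm3 and 1.08 ± 0.56 for Myoz2. Adjusted p ran from 0.191 for Myoz2 to 0.998 for Myl3, and that of Myoz2 was 0.049 without STZ,SD replicate 5. The interval of Myl2 reached from -0.83 to 2.34 and that of Myl3 from -1.69 to 1.68. SAM called Tnni1 and Myoz2 as higher, and limma neither. The 3 other probe sets of Tpm3 gave differences of -0.14, -0.43 and -0.28 where the one used gave 0.19.

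Of the other myosin heavy chains none was called. Differences were -0.049 ± 0.14 for Myh1, 0.33 ± 0.31 for Myh2 and -0.11 ± 0.049 for Myh4, which had an adjusted p of 0.138. Myh3, the embryonic heavy chain that is made again in regenerating fibres, had 7.93, 5.66, 5.79, 5.17 and 5.46 in STZ,SD, against 5.19, 5.29 and 5.60 in Con,SD. Its difference of 0.68 ± 0.31 (adjusted p = 0.139) was called by SAM but not by limma, and rested on STZ,SD replicate 1. Myh8, the perinatal heavy chain, was highest in the same mouse, at 8.28, and its difference was 0.087 ± 0.12 (adjusted p = 0.665). That array also had the highest satellite cell marker mean, 7.57 against 7.41 to 7.53 on the other STZ,SD arrays, and the highest macrophage marker mean, 7.97 against 7.08 to 7.79, and their part in the Myh3 value was not tested. The heavy chain genes are alike in sequence, and cross-hybridisation between their probes was not tested.

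The remaining light chain and troponin genes of fast fibres stayed within narrow bounds. Differences were 0.077 ± 0.075 for Mylpf, the regulatory light chain of fast fibres, and 0.15 ± 0.084 for Mylk2, the kinase that phosphorylates it. The fast troponins differed by -0.053 ± 0.040 (Tnnt3, troponin T), -0.0097 ± 0.043 (Tnni2, troponin I) and -0.022 ± 0.057 (Tnnc2, troponin C), and the 95% interval of Tnnt3 was -0.14 to 0.032. Tpm2, the beta-tropomyosin, had a difference of -0.12 ± 0.054 with an adjusted p of 0.129, which was 0.094 without Con,SD replicate 1, 0.072 without Con,SD replicate 2 and 0.099 without STZ,SD replicate 3.

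Among thin filament and Z-disc genes the differences were -0.012 ± 0.041 for Acta1, 0.017 ± 0.041 for Neb, 0.35 ± 0.19 for Actn2 and 0.027 ± 0.044 for Actn3, the alpha-actinin of fast fibres. Actc1, the cardiac alpha-actin, had 12.78, 11.81, 13.18, 12.43 and 13.36 in STZ,SD, against 11.85, 12.28 and 12.85 in Con,SD, a difference of 0.36 ± 0.23 (adjusted p = 0.286). The STZ,SD mice alone spanned more than the Con,SD mice, and without STZ,SD replicate 2 the adjusted p was 0.058. Without STZ,SD replicate 5, that of Actn2 was 0.043 in place of 0.217. The Z-disc scaffold genes differed by 0.084 ± 0.052 (Myot, myotilin), 0.085 ± 0.053 (Ldb3, also called ZASP) and -0.067 ± 0.076 (Tcap, the cap of titin), and the adjusted p of Ldb3 was 0.28, or 0.095 without STZ,SD replicate 2.

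Mybph, a myosin-binding protein related to myosin-binding protein C, had 10.83, 9.43, 10.19, 10.06 and 10.62 in STZ,SD, against 8.88, 9.85 and 10.46 in Con,SD. The groups overlapped, the difference was 0.56 ± 0.25 and the adjusted p was 0.139, which was 0.056 without Con,SD replicate 7 and 0.05 without STZ,SD replicate 2. Differences were -0.017 ± 0.097 for Mybpc1 and 0.064 ± 0.050 for Des, the intermediate filament protein that ties neighbouring Z-discs together. The adjusted p of Myh3 was 0.058 without STZ,SD replicate 4. None of the calls of Mb, Tmod4, Myl1, Tpm1, Myoz1 and Myom2 was lost when any 1 of the 12 mice was left out.

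**Figure D5:**
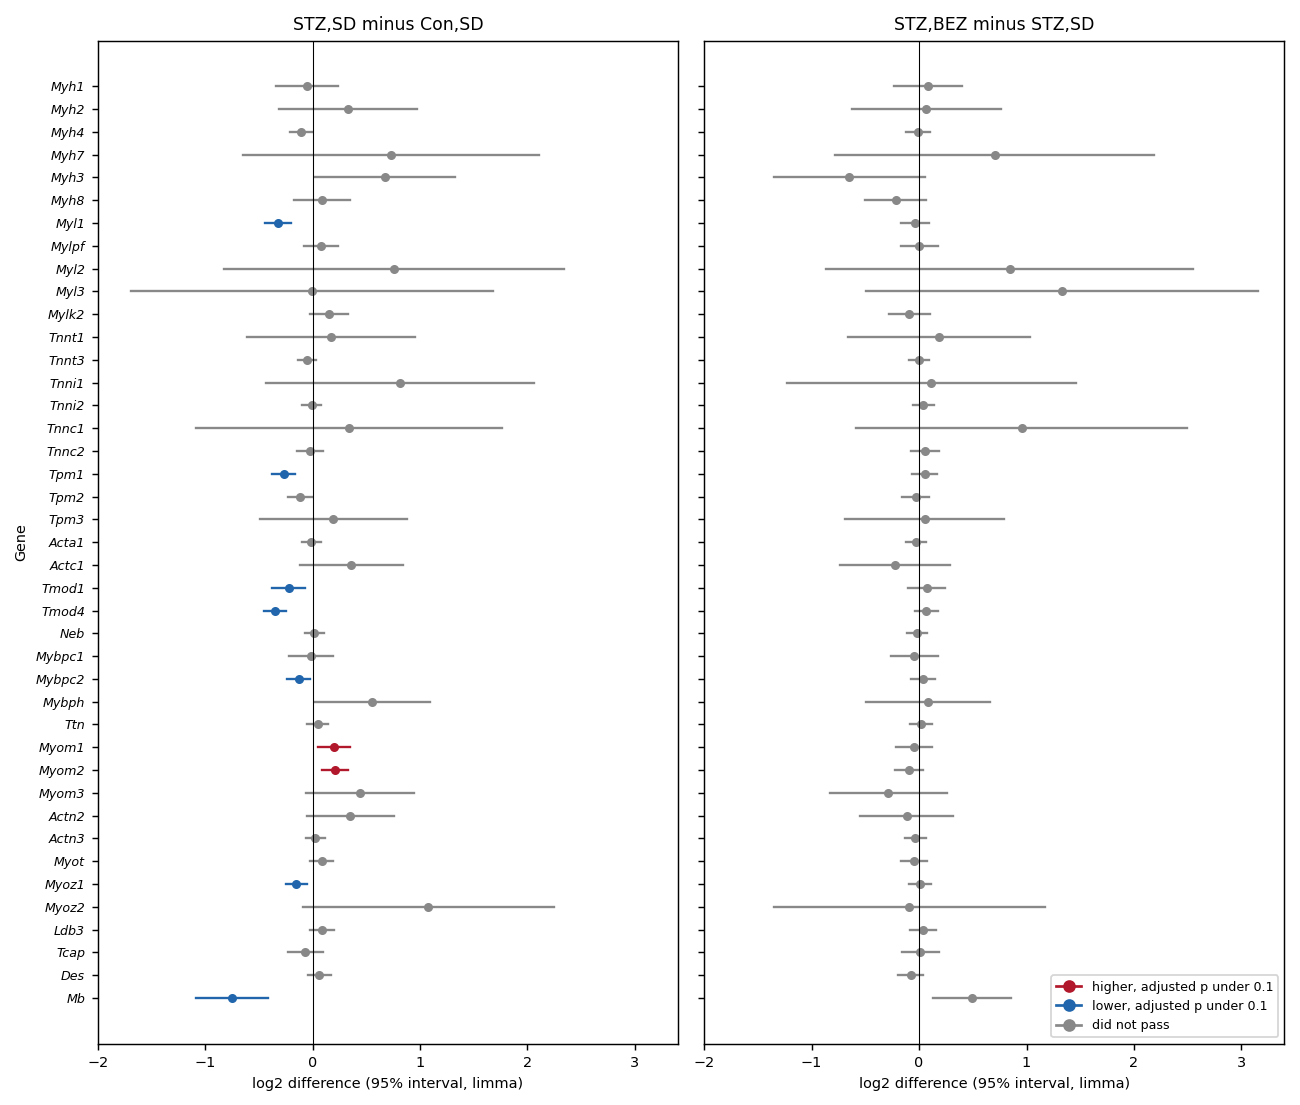
Log2 differences of the 41 genes in 2 comparisons, STZ,SD minus Con,SD on the left and STZ,BEZ minus STZ,SD on the right. Points are limma estimates and lines their 95% intervals, coloured by whether the adjusted p was under 0.1. On the left, Mb at -0.75 is the lowest of 7 blue genes and Myom1 and Myom2 are red, and on the right all genes are grey.

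STZ,BEZ was set against STZ,SD to ask whether bezafibrate altered the diabetic muscle. Of the 41 sarcomere genes 0 were called, against 0.0201% of all genes tested, which were 4 genes. Myoglobin came nearest: Mb had 12.86, 12.91, 13.13, 12.70 and 12.60 in STZ,BEZ, against 12.94, 12.21, 12.14, 12.60 and 11.84 in STZ,SD, a difference of 0.49 ± 0.17 with a 95% interval of 0.13 to 0.85. STZ,SD replicate 1 lay above 4 of the 5 STZ,BEZ mice. The unadjusted limma p of Mb was 0.01 and the adjusted p 0.778, so that the difference did not pass. It was the only 1 of the 41 genes with an unadjusted p under 0.05, where 5.69% of all genes had one, and SAM also called 0. In 0 of the 41 genes were the groups free of overlap, as against 1.16% of all genes. The median difference of the 41 genes was 0.0057, beside 0.0016 for all genes.

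The genes other than Mb that had fallen in STZ,SD differed by under 0.1 log2 units between STZ,BEZ and STZ,SD. Differences of STZ,BEZ from STZ,SD were 0.066 ± 0.052 for Tmod4, -0.040 ± 0.062 for Myl1, 0.052 ± 0.054 for Tpm1, 0.0057 ± 0.049 for Myoz1, 0.069 ± 0.081 for Tmod1 and 0.036 ± 0.055 for Mybpc2. The 95% intervals were -0.043 to 0.18 for Tmod4, -0.17 to 0.090 for Myl1 and -0.062 to 0.17 for Tpm1. Tmod4 had 12.82, 12.80, 12.82, 12.83 and 12.81 in the 5 STZ,BEZ mice, within the range of STZ,SD. The 2 genes that had risen differed by -0.094 ± 0.061 (Myom2) and -0.048 ± 0.078 (Myom1).

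For the slow-fibre genes, differences of STZ,BEZ from STZ,SD were 0.70 ± 0.71 for Myh7, 0.84 ± 0.81 for Myl2, 1.33 ± 0.87 for Myl3, 0.19 ± 0.40 for Tnnt1, 0.11 ± 0.64 for Tnni1, 0.96 ± 0.73 for Tnnc1, 0.051 ± 0.35 for Tpm3 and -0.091 ± 0.60 for Myoz2. Their intervals reached a median of 1.42 log2 units to either side, and that of Myl3 ran from -0.49 to 3.15. In all 8 genes, which varied together, each STZ,BEZ mouse was above STZ,SD replicates 4 and 5, picked as the lowest mice in these same values. In all of them but Myl3, STZ,BEZ replicates 1, 3 and 4 were below STZ,SD replicates 1 to 3. For the heavy chains Myh1, Myh2 and Myh4 the differences were 0.083 ± 0.15, 0.068 ± 0.33 and -0.0096 ± 0.053. Myh3 and Myh8, both highest in STZ,SD replicate 1, had -0.65 ± 0.33 and -0.22 ± 0.13.

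The remaining genes had differences of STZ,BEZ from STZ,SD between -0.28 and 0.081. Light chain and kinase genes differed by 0.0033 ± 0.081 (Mylpf) and -0.091 ± 0.090 (Mylk2), and fast troponin genes by 0.002 ± 0.044 (Tnnt3), 0.038 ± 0.047 (Tnni2) and 0.053 ± 0.061 (Tnnc2). For the thin filament the values were -0.033 ± 0.058 (Tpm2), -0.030 ± 0.044 (Acta1), -0.22 ± 0.24 (Actc1) and -0.017 ± 0.045 (Neb). Thick filament and M-band genes had -0.044 ± 0.10 (Mybpc1), 0.081 ± 0.27 (Mybph), 0.018 ± 0.050 (Ttn) and -0.28 ± 0.26 (Myom3). The 13 fast-fibre genes lay between -0.091 and 0.083, and their intervals reached a median of 0.115 to either side, with those of Myh2 (-0.63 to 0.76) and Myh1 (-0.23 to 0.40) wider. Z-disc and desmin genes had -0.12 ± 0.21 (Actn2), -0.035 ± 0.047 (Actn3), -0.049 ± 0.057 (Myot), 0.038 ± 0.057 (Ldb3), 0.011 ± 0.082 (Tcap) and -0.079 ± 0.054 (Des).

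Setting STZ,BEZ against Con,SD shares the Con,SD mice with the first one, so the values are given for their own sake. Of the 41 genes 5 fell and 0 rose (12.2%, against 21.6% of all genes, 8.45% lower and 13.1% higher). Myl1 had 13.28, 13.39, 13.23, 13.44 and 13.42 in STZ,BEZ, against 13.58, 13.69 and 13.85 in Con,SD, a difference of -0.36 ± 0.057 (adjusted p = 0.000499). Tmod4 differed by -0.29 ± 0.048 (adjusted p = 0.000837) and Tpm1, with 13.46, 13.50, 13.52, 13.58 and 13.57 in STZ,BEZ, by -0.22 ± 0.050 (adjusted p = 0.00775). Myoz1, with 13.08, 13.07, 13.08, 13.13 and 13.15, differed by -0.15 ± 0.045 (adjusted p = 0.0381), a call that was lost in the second quantile normalization (0.136), with the replicate number as a block (0.1003) and with the mean of the slow-fibre genes in the model (0.111). In these 4 genes all STZ,BEZ mice were below all Con,SD mice.

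Tpm2, with 13.00, 12.91, 13.06, 12.99 and 13.02 in STZ,BEZ, against 13.01, 13.18 and 13.25 in Con,SD, differed by -0.15 ± 0.054 (adjusted p = 0.0643). Its call was lost without Con,SD replicate 3 (adjusted p = 0.116), Con,SD replicate 5 (0.102), STZ,BEZ replicate 2 (0.165) or STZ,BEZ replicate 4 (0.109). It was also lost in median centring (0.103), the second quantile normalization (0.269), with the replicate number as a block (0.104), without Con,SD replicates 1, 3 and 4 together (0.150) and with the mean of the slow-fibre genes in the model (0.109). In all, 6 of the 41 genes did not overlap, 4 lower and 2 higher (Ldb3 and Myom2), where 8.51% of all genes did not (2.5% lower and 6.01% higher). Median centring gave 2 higher and 4 lower calls, and a second quantile normalization 3 and 3. The slow-fibre genes, which varied together on the same arrays, had differences of 0.25 to 1.60, all 8 above 0 by the probe sets used. Of them 0 were called and 2 (Myh7 and Myl2) had an unadjusted limma p under 0.05, where 29.6% of all genes had one. The 3 other probe sets of Tpm3 differed by -0.14, -0.43 and -0.28 in STZ,SD from Con,SD. In STZ,BEZ from STZ,SD these 3 differed by 0.11, -0.032 and -0.025. Mb differed by -0.26 ± 0.16 (adjusted p = 0.291).

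Promoter sequences are shown for the 3 genes with the largest falls in STZ,SD and the 2 slow-fibre genes with the largest spread, among the genes with a single window in the RefSeq-derived table (GRCm38.p6). Each window runs from 250 bases before the transcript start to 50 after it, 5′ to 3′ on the strand of the gene. Capitals mark MCAT elements (CATTCC, or GGAATG on the other strand), which TEAD factors are known to bind in muscle genes. The windows of Tmod4, Myl1 and Tpm1 are set on a start that lies inside the span of the gene record.
Tmod4 (chr3:95124264-95124563, plus strand): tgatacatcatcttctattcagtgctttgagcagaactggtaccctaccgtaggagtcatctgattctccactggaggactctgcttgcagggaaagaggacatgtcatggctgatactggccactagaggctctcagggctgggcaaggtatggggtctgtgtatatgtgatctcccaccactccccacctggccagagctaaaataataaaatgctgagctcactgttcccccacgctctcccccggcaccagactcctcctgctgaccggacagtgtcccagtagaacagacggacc
Myl1 (chr1:66945007-66945306, minus strand): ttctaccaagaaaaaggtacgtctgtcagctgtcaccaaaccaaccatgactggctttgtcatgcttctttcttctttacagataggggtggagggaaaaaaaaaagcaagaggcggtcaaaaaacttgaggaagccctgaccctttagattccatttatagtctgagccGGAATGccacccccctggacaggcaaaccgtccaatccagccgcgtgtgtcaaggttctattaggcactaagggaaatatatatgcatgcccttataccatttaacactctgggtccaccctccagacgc
Tpm1 (chr9:67049164-67049463, minus strand): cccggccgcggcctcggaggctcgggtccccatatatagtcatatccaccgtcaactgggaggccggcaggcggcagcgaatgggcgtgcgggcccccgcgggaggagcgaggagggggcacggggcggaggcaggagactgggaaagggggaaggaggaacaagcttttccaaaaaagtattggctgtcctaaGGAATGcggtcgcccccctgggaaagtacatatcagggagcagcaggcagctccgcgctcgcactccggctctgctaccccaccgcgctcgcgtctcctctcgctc
Myl3 (chr9:110763428-110763727, plus strand): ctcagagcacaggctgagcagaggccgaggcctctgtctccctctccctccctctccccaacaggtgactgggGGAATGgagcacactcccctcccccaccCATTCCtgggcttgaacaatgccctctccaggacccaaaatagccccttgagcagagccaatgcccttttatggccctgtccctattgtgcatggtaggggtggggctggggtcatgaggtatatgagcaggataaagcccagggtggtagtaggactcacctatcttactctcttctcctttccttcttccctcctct
Tnnc1 (chr14:31208062-31208361, plus strand): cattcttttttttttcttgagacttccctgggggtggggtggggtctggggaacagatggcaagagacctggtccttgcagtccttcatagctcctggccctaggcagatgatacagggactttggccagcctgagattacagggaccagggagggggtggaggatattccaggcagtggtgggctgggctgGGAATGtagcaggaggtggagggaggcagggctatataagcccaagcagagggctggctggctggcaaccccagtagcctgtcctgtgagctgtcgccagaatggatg

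The Myl1 window held 1 MCAT element, 80 bases before the start, the Tpm1 window 1 at 56 bases and the Tnnc1 window 1 at 58 bases, the Myl3 window held 2, at 177 and 149 bases, and that of Tmod4 had 0. Of the 41 genes 32 had a window in the table, and 12 of these held an MCAT element (37.5%), against 16.6% of all genes with a window (30.8% and 14.7% of single windows). The 12 were Acta1, Mybpc2, Mybph, Myh1, Myh4, Myh7, Myl1, Myl3, Tmod1, Tnnc1, Tpm1 and Ttn, which came from fast, slow and shared genes alike. E-boxes (CANNTG, the sites of the MyoD family) were in 87.5% of the 32 genes and 75% of all genes, and the letters TATAAA, on either strand, in 34.4% and 15.7%. MEF2 motifs were in 18.8% and 3.7%, and CArG boxes, the sites of serum response factor, in 18.8% and 1.81%. Each motif was counted on both strands and alone, although MEF2 motifs and TATAAA can share letters. Of the printed windows only that of Myl3 held a CArG box, 85 bases before the start. A match of letters shows no binding.

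Proteins that build or flank the sarcomere beyond the 41 were taken from a list of 50, of which 49 were measured. In STZ,SD against Con,SD 10 were higher and 8 lower, beside 13.9% and 11.9% of all genes. Xirp1 (Xin), an actin-binding repeat protein of adhesion sites, averaged 10.16 ± 0.25 in STZ,SD and 9.09 ± 0.26 in Con,SD, a difference of 1.08 ± 0.13 (adjusted p = 2.53e-05). Dmd, dystrophin of the costamere, rose by 0.62 ± 0.10 and Mypn, the Z-disc protein myopalladin, by 0.30 ± 0.074. Smyd1, a methyltransferase needed for myosin assembly, averaged 10.43 ± 0.33 in STZ,SD and 11.03 ± 0.078 in Con,SD, a difference of -0.61 ± 0.11 (adjusted p = 0.000688). Lrrc39, an M-band protein that binds myosin, differed by -0.40 ± 0.062 and Xirp2, a relative of Xirp1, by -0.34 ± 0.085, both lower in STZ,SD.

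Regulators of fibre type were higher more often than lower in STZ,SD, with 10 higher and 2 lower of 24 measured, beside 13.9% and 11.9% of all genes. This list, like the others, was chosen with earlier results of these data known, so its share of higher genes may reflect that choice. Vgll3 and Vgll2, cofactors of the TEAD factors, differed by 0.98 ± 0.092 and 0.78 ± 0.14. Nfatc1, the calcineurin-dependent factor of the slow programme, differed by 0.49 ± 0.067 (adjusted p = 0.000111) and Ppp3ca, the catalytic subunit of calcineurin, by 0.35 ± 0.064. Sox6, a repressor of slow-fibre genes, rose too, by 0.35 ± 0.058, and Mef2d by 0.41 ± 0.077.

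Outside the sarcomere, 12 genes known for high expression in fast fibres had 2 higher and 5 lower in STZ,SD, where 13.9% of all genes were higher and 11.9% lower. The glycolytic genes Pfkm, Gpd1 and Eno3 differed by -0.32 ± 0.057, -0.45 ± 0.089 and -0.22 ± 0.047, and the calcium-handling genes Casq1 and Pvalb by -0.39 ± 0.088 and -0.18 ± 0.052. The calcium channel genes Cacna1s and Ryr1 were the higher ones, and Cacna1s differed by 0.19 ± 0.050. Of 9 slow-fibre genes outside the sarcomere 3 were higher and 1 lower, against the same shares of all genes, 13.9% and 11.9%. Cd36, the fatty acid transporter, Pln, phospholamban, and Casq2, the slow-fibre calsequestrin, differed by 0.52 ± 0.12, 0.41 ± 0.14 and 0.83 ± 0.29, and Ckmt2, the mitochondrial creatine kinase, by -0.63 ± 0.10 (adjusted p = 0.000298). Pln, Casq2, Atp2a2 and Ldhb, 4 of the 9, had the order of STZ,SD and Con,SD mice seen in the slow-fibre sarcomere genes, against 0.471% of all genes. The part of that order in the rises of Pln and Casq2 is not stated here. Their differences with the mean of the slow-fibre genes in the model are not given.

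In STZ,BEZ against STZ,SD 0 genes of these 4 lists passed. With the mean of the slow-fibre genes in the model 1 did, the small heat shock protein gene Hspb7, named here after its value was seen, at -0.60 (adjusted p = 0.0799). The smallest adjusted p was 0.778 for Tead1, a factor that binds MCAT elements, at 0.23 ± 0.068, followed among the regulators by Rcan1, an inhibitor of calcineurin, at 0.48 ± 0.18 and Vgll3 at -0.18 ± 0.10. Lrrc39 differed by 0.18 ± 0.067, Trim63, the ubiquitin ligase MuRF1 of muscle atrophy, by -0.44 ± 0.19 and Unc45b, a chaperone of myosin, by 0.19 ± 0.087. The genes nearest to the threshold outside the sarcomere were Gpd1, Pfkm and Ampd1 among the fast-fibre genes, at 0.16 ± 0.096, 0.11 ± 0.062 and 0.21 ± 0.12, and Ckmt2, Slc16a1 and Ldhb among the slow-fibre genes, at 0.21 ± 0.11, 0.22 ± 0.13 and 0.27 ± 0.30.

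Against Con,SD, STZ,BEZ had 13 regulators higher and 1 lower, 6 sarcomere partners higher and 6 lower, 2 fast-fibre genes outside the sarcomere higher and 5 lower, and 3 slow-fibre genes outside the sarcomere higher and 1 lower. Of all genes 13.1% were higher and 8.45% lower. Among the regulators Vgll3 differed by 0.80 ± 0.092, Nfatc1 by 0.46 ± 0.067, Sox6 by 0.34 ± 0.058, Vgll2 by 0.74 ± 0.14, Ppp3ca by 0.34 ± 0.064 and Six4, a homeobox factor of fast fibres, by 0.35 ± 0.073. Partners with the smallest adjusted p were Xirp1 at 0.83 ± 0.13, Dmd at 0.41 ± 0.10, Mypn at 0.27 ± 0.074, Lrrc39 at -0.22 ± 0.062, the LIM protein Fhl3 at -0.40 ± 0.12 and Smyd1 at -0.36 ± 0.11. Outside the sarcomere Cacna1s and Ryr1 differed by 0.25 ± 0.050 and 0.19 ± 0.044, Eno3, Pfkm, Pvalb and Gpd1 by -0.19 ± 0.047, -0.21 ± 0.057, -0.17 ± 0.052 and -0.29 ± 0.089, and Ckmt2, Cd36, Pln and Slc16a1 by -0.43 ± 0.10, 0.47 ± 0.12, 0.50 ± 0.14 and 0.31 ± 0.12.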

How the data were processed

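The deposited values are log2 expression values of Affymetrix Mouse Gene 1.0 ST arrays, which the authors made with RMA, a method of background correction, quantile normalization and probe summary, in Affymetrix Expression Console 1.2 (per the submitters' processing notes). The lowest value was 2.76 and the highest 14.6, with 0 missing. Because RMA equalises the distributions of the arrays, a general shift of expression cannot appear in them. No detection p-values, scan dates or scanner files were used.

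Of 35556 probe sets 21789 had 1 gene symbol, 1621 several and 12146 none. Several probe sets were left for 999 genes, and the one with the highest mean over 17 arrays was kept, which gave 19938 genes; Tmod1 had 2 and Tpm3 4. All 41 symbols matched the RefSeq gene table. Groups came from the labels, which number the mice as biological replicates. The 3 comparisons came from 1 fit with limma 3.58.1 under R 4.3.3 (adjustment by Benjamini-Hochberg over all 19938 genes, threshold 0.1, the false discovery rate of the methods). SAM was written anew and run with 100 permutations. The fit was tested on simulated data. Replicate numbers did not pair the mice. All 41 genes are named in the first 2 comparisons and the called ones in the third, and of the wider lists up to 6 called genes, or up to 3 where 0 passed. The genes, classes, lists and markers were chosen with earlier results of these data known, and Myl2 ranges, array orders and promoter choices were read from the values. The study's own fold changes and lists were not used. Precision is limited by the number of arrays.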

Additional observations from a re-analysis of the deposited data

Results flagged for a closer look

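Among 123 combinations of a gene and a group, 6 held a mouse that stood apart from its group by Dixon's criterion, which chance alone meets in about 1 of 20 groups. In STZ,BEZ replicate 2, Myh1 was at 12.46, below the next mouse at 12.58, and Tpm3 was at 10.65, above the next at 9.74. STZ,SD replicate 1 had Myh3 at 7.93, with the next mouse at 5.79. STZ,SD replicate 5 had Mybpc1 at 10.98, below the next at 11.34. Con,SD replicate 4 had Myh3 at 5.60, above the next at 5.35. Con,SD replicate 1, which also had the highest hepatocyte mean, had Tmod4 at 12.98, below the next at 13.09.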

How the results depend on the processing

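Calls among the 41 genes in STZ,SD against Con,SD numbered 9, and 7 to 11 when each mouse was left out. SAM gave 14. Mb, Tmod4, Myl1, Tpm1, Myoz1 and Myom2 passed at 0.1 under every limma setting run. Mybpc2 was lost in median centring (adjusted p = 0.138), the second quantile normalization (0.397), the fit of only these groups (0.141) and with the hepatocyte level (0.122) or slow-fibre level (0.13) as a covariate, Tmod1 in the second quantile normalization (0.12) and the mean of probe sets (0.498), and Myom1 with array weights (0.134) and without Con,SD replicates 1, 3 and 4 (0.121). STZ,BEZ against STZ,SD had 0 calls among the 41 genes under all settings run, and 1 in the wider lists (Hspb7) with the mean of the slow-fibre genes in the model. STZ,BEZ against Con,SD had 5, 9 when STZ,SD was left out of the model, 10 with array weights, and 4 to 7 when each mouse was left out. With the replicate number as a block, which no label ties to a litter or day, 8 (3 higher and 5 lower, 6 of them among the 9), 0 and 4 genes were called; same-numbered mice of different groups correlated at -0.24 to 0.083 in their deviations.

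Genes that gained a call in STZ,SD against Con,SD were Neb, Ttn, Actn3, Ldb3 and Des in the second quantile normalization, Actc1 and Mybph with the block, Tpm2 with the hepatocyte level, Myoz2 without Con,SD replicates 1, 3 and 4, and Tnni1, Myoz2, Myh3, Mybph, Myom3 and Actn2 in SAM. In STZ,BEZ against Con,SD, Myl1, Tmod4 and Tpm1 passed at 0.1 under every limma setting run.

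Changes of sign concerned genes that did not pass. In STZ,SD against Con,SD, Myl3 (-0.0044) became 0.0033 after median centring, 0.0013 after the second quantile normalization, 0.049 with the hepatocyte level and 0.71 without Con,SD replicates 1, 3 and 4. The second quantile normalization gave 0.0063 for Myh1, 0.033 for Tnni2, 0.035 for Tnnc2 and 0.029 for Mybpc1, array weights 0.0041 for Tnnc2, the mean of probe sets -0.17 for Tpm3, and leaving out Con,SD replicates 1, 3 and 4 gave -0.010 for Neb, 0.087 for Myh1 and 0.062 for Mybpc1. In STZ,BEZ against STZ,SD, median centring gave 0.0038 for Myh4, the second quantile normalization 0.0017 for Acta1 and -0.0067 for Tcap, array weights -0.023 for Mylpf, -0.0043 for Tnnt3, -0.0044 for Myoz1 and 0.28 for Myoz2, the hepatocyte level -0.045 for Mylpf, -0.0042 for Tnnt3, -0.0027 for Myoz1 and -0.0064 for Tcap, and the slow-fibre level -0.012 for Myh1, -0.17 for Myh2 and -0.022 for Tcap. The cause was not tested.

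Leaving out each mouse in turn turned the sign of STZ,SD against Con,SD for Myl3 (-0.46 to 0.60), Mybpc1 (-0.072 to 0.068), Myh1 (-0.14 to 0.066), Myh8 (-0.072 to 0.18), Tnnt1 (-0.079 to 0.42), Tnnc1 (-0.022 to 0.87), Tnnc2 (-0.045 to 0.031) and Tcap (-0.12 to 0.0057). In STZ,BEZ against STZ,SD it did so for Myh4 (-0.035 to 0.012), Myoz1 (-0.015 to 0.015), Myoz2 (-0.57 to 0.18), Mylpf (-0.061 to 0.036), Tnnt3 (-0.0082 to 0.0089), Mybph (-0.12 to 0.23), Ldb3 (-0.0061 to 0.060), Myom1 (-0.099 to 0.0060), Myh2 (-0.19 to 0.21), Tnni1 (-0.39 to 0.56), Tpm3 (-0.17 to 0.24), Myh1 (-0.031 to 0.15), Tnnt1 (-0.070 to 0.44) and Tcap (-0.062 to 0.066).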
